A study of Homo sapiens with 17 samples.

Results

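The small leucine-rich proteoglycans (SLRPs) were followed through 10 genes: LUM, DCN, BGN, OGN, FMOD, PRELP, ASPN, OMD, PODN and KERA. Members were taken by gene name, and all 10 were found among the 20218 gene names of the expression table. RNA sequencing had been done on 17 libraries from human H9 embryonic stem cells, an established line, carrying a SHOX2 reporter and differentiated towards sinoatrial node-like cells, the pacemaker cells of the heart. Cells had been sorted by green (GFP) and red (mCherry) fluorescence into GFP+mCherry+, GFP-mCherry+ and GFP-mCherry- populations at day 25 (3 libraries each) and day 40 (2, 3 and 3 libraries). The protocol text lists CHIR99021, BMP4 and Activin A as the first step for all cultures, then XAV939 for cardiomyocytes, or cucurbitacin, retinoic acid, SU5402, XAV939, Tyrphostin AG 490 and chidamide for the node-like cells. It does not say which recipe gave which sorted population, and every library carries the node-like label. The genotype field gives the fluorescence of the sort, and the labels name neither the gene that drives mCherry nor the number of reporter clones or separate differentiations. The p-values therefore measure the spread between libraries, which may be technical.

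SLRPs are secreted proteins with a horseshoe-shaped core of leucine-rich repeats, to which chondroitin, dermatan or keratan sulphate chains can be attached. They bind collagen fibrils and set their diameter and spacing, and several also hold TGF-beta or growth factor receptors. In the heart they are made mainly by fibroblasts and valve interstitial cells and are sparse in working muscle. The family is divided into classes by sequence. DCN, BGN and ASPN belong to class I, LUM, FMOD, PRELP, KERA and OMD to class II, OGN to class III, and PODN to class V.

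The sorted populations were checked first against SHOX2, MYH6 and TNNT2. SHOX2, the reporter's gene, averaged 91.8 ± 45.1 FPKM (fragments scaled by transcript length and library size, ± SD, n = 3) in GFP+mCherry+ cells at day 25 and 74.3 ± 22.4 FPKM (n = 2) at day 40, and at most 2.41 FPKM in any library of the other populations. TNNT2, cardiac troponin T, averaged 1796 and 2335 FPKM in GFP+mCherry+ cells, 5328 and 6445 FPKM in GFP-mCherry+ cells, and 135 and 377 FPKM in GFP-mCherry- cells at the 2 days. MYH6, the atrial-type myosin heavy chain, followed the same order at day 25 (382, 669 and 6.06 FPKM), and is listed at 0 in GFP-mCherry+ library 17 of day 40. Summed FPKM of 10 cardiomyocyte markers ranged from 9500 to 14540 in GFP-mCherry+ libraries, 2104 to 4763 in GFP+mCherry+ libraries and 337 to 1646 in GFP-mCherry- libraries. Summed FPKM of 9 sinoatrial node markers ranged from 336 to 530 in GFP+mCherry+ libraries, and was 112 to 149 in GFP-mCherry+ and 137 to 232 in GFP-mCherry- libraries. The sum holds SHOX2 itself, so it is no separate check of the sort. At day 25, 6 of the 9 were higher and 0 lower in GFP+mCherry+ than in GFP-mCherry+ cells, against 12% of all genes higher. BMP4 averaged 190 against 30.7 FPKM there, but HCN4 40.3 against 41.8 FPKM. TBX18 averaged 22.1 FPKM in GFP+mCherry+ and 60.6 FPKM in GFP-mCherry- cells of day 25, without being called. Of the 9 markers, 5 were called higher and 0 lower in that comparison, against 5.77% of all genes higher. Read depth is not in the expression table, and 16489 to 17801 genes were above 0 in a library, with the lowest counts in libraries 13 (GFP+mCherry+) and 14 (GFP-mCherry+) of day 40.

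Some libraries stood apart for the SLRPs themselves. Library 14 had 574 FPKM of LUM, 826 of DCN, 56.4 of FMOD and 18.9 of OGN, where the other GFP-mCherry+ libraries of day 40 reached at most 160, 252, 15.7 and 4.61 FPKM. Its summed fibroblast markers (3462 FPKM) were the highest and its summed cardiomyocyte markers (10310 FPKM) the lowest of its group, and the part of these in its SLRP levels was not tested. Library 1 had the highest LUM, DCN, OGN and ASPN but the lowest PRELP of the GFP+mCherry+ libraries of day 25. Library 8 had the highest LUM, DCN, OGN, ASPN and PODN and the lowest BGN and PRELP of the GFP-mCherry+ libraries of day 25. Values without these libraries are given beside the test results they change.

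The members lie in few places in the genome (coordinates of the table, build hg19). KERA (chr12:91444268-91451760), LUM (chr12:91496406-91505608) and DCN (chr12:91539025-91576900) follow each other on the minus strand, with 44646 bp between KERA and LUM and 33417 bp between LUM and DCN. OGN (chr9:95146249-95166978), OMD (chr9:95176527-95186743) and ASPN (chr9:95218487-95244788) form a minus-strand cluster inside CENPP (chr9:95087766-95382815), a gene of the opposite strand at 0.459 to 1.66 FPKM. FMOD (chr1:203309756-203320617, minus strand) and PRELP (chr1:203444956-203460480, plus strand) are 124339 bp apart. PODN (chr1:53527854-53551174) and BGN (chrX:152760397-152775012) are on the plus strand, and BGN overlaps HAUS7 (6.37 to 17.3 FPKM, opposite strand) by 582 bp. The strandedness of the libraries is not given in the sources used here, so reads shared with CENPP or HAUS7 cannot be told apart from those of the members.

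RefSeq promoter windows (GRCh38.p14, 250 bases before to 50 after the start, 300 bases) were matched for 6 of the 10 members: BGN, OGN, FMOD, PRELP, ASPN and PODN. They are shown for OGN, ASPN and FMOD, which were higher at day 40 than at day 25 in GFP-mCherry- cells, and for PODN, which was higher in GFP-mCherry+ than in GFP-mCherry- cells where LUM and DCN were lower. Capitals mark matches on either strand to TATAAA (the TATA box), CCAAT (the CCAAT box), GGGCGG (the GC box), TGANTCA (the AP-1 site) or CAGAC (the SMAD box), and no matches overlapped each other. The windows are OGN at chr9:92404650-92404949 (minus strand), ASPN at chr9:92482457-92482756 (minus), FMOD at chr1:203351073-203351372 (minus) and PODN at chr1:53061963-53062262 (plus), each read 5′ to 3′ along the gene.
OGN: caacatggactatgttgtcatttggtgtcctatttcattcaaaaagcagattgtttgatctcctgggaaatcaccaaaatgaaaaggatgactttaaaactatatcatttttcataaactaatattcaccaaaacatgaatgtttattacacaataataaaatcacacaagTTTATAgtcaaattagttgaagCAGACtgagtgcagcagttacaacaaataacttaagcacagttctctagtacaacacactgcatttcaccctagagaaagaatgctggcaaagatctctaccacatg
ASPN: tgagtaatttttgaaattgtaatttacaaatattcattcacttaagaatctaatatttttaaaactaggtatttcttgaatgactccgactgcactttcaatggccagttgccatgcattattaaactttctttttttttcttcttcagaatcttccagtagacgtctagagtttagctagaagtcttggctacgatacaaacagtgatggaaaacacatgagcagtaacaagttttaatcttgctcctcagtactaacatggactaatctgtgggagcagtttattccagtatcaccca
FMOD: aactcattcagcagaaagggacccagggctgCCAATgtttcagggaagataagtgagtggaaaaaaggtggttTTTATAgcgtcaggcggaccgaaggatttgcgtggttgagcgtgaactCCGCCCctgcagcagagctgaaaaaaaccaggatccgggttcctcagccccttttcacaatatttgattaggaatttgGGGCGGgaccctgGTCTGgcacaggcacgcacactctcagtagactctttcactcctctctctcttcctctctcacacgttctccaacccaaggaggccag
PODN: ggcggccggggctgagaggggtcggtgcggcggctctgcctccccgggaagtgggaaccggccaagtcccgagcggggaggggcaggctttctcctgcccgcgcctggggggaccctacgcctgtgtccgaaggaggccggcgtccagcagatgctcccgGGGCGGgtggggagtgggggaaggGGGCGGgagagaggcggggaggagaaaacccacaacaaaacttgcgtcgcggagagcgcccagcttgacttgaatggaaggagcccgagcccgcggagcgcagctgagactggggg
The OGN and ASPN windows were AT-rich, with 33.3% and 34.0% G and C against a median of 58.7% over all 35116 promoter windows, and only 2.83% and 3.39% of windows had less. FMOD held 52.3% and PODN 71.7%. The OGN window, which overlaps that of another OGN start in RefSeq, had 1 TATA box match beginning at position -79 from the start and 1 SMAD box match. The window of that other start, not shown, held 38.0% G and C, and 8.1% of windows had less. Its TATA box match began at -200, and it had 2 SMAD box matches. ASPN had no match to any of the 5 motifs. FMOD had 1 TATA box, 1 CCAAT, 2 GC box and 1 SMAD box matches, and PODN had 2 GC box matches, while BGN, not shown, had 5 GC box matches. Among all windows, 11.5% held the TATA box, 34.6% the CCAAT box, 45.0% the GC box, 7.71% the AP-1 site and 45.3% the SMAD box, so that each match is a description of these letters and not a binding site.

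DCN and LUM were by far the most abundant members. Together they made up 88.95% to 97.2% of the summed FPKM of the 10 genes in every library. The 10 genes together were 0.0610% (library 11, GFP-mCherry+ day 40) to 0.687% (library 1, GFP+mCherry+ day 25) of all FPKM. DCN ranked 16th to 375th and LUM 22nd to 758th among the genes of a library. FMOD and BGN followed at 13.9 to 128 and 8.14 to 102 FPKM. OGN (0.912 to 35.4 FPKM), ASPN (0.672 to 12.8), PRELP (0.622 to 14.5) and PODN (0.344 to 5.82) were low. OMD (at most 0.283 FPKM) and KERA (at most 0.808 FPKM) stayed under the minimum of 1 FPKM in 2 libraries, so that 8 of the 10 members were tested. OMD, known from bone and tooth, was near 0 although its neighbours OGN and ASPN on the same strand were not. KERA, keratocan of the cornea, was 0.130 to 0.808 FPKM in GFP-mCherry- libraries and at most 0.175 FPKM elsewhere.

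**Figure D1:**
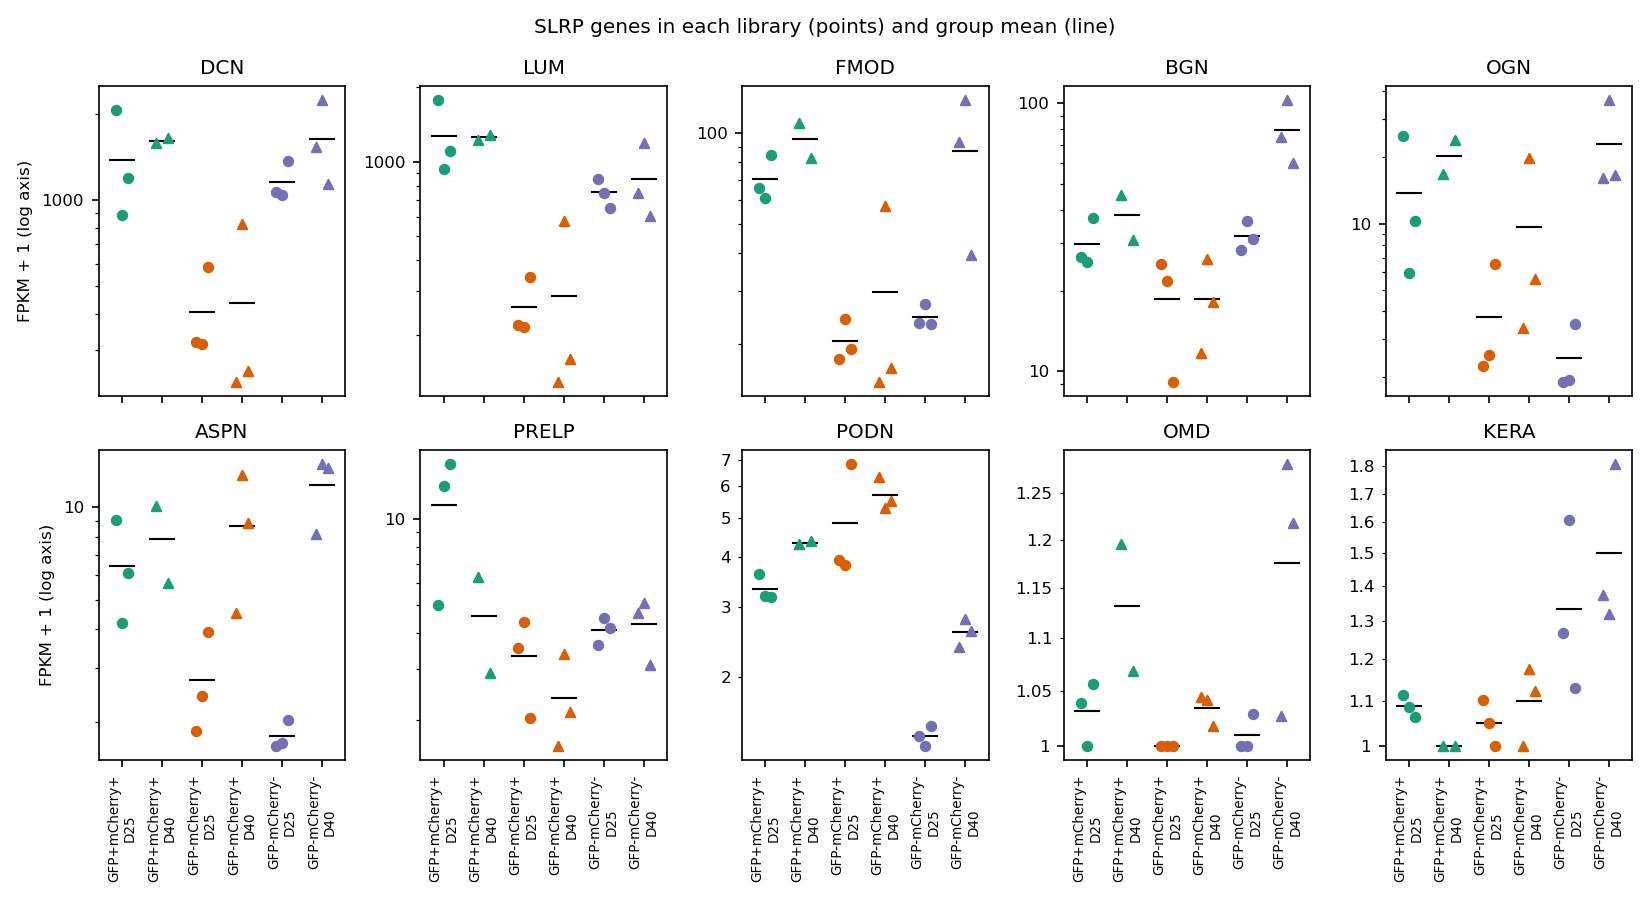
FPKM + 1 of the 10 SLRP genes on log axes, 1 point for each library (circles day 25, triangles day 40), with a line at the mean of each of the 6 groups of sorted population and day. DCN and LUM lie highest in GFP+mCherry+ and GFP-mCherry- cells, PODN lies lowest in GFP-mCherry- cells, and library 14 is the triangle far above the others of GFP-mCherry+ day 40 for LUM, DCN, FMOD and OGN.

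At day 25, GFP+mCherry+ cells had more RNA of 5 SLRPs than GFP-mCherry+ cells: LUM, DCN, FMOD, PRELP and ASPN. This is 5 of 8 tested members, where 12% of all 14845 genes tested were called higher (limma, adjusted p under 0.05). In bulk RNA, fewer cells making a transcript and less transcript per cell cannot be told apart. The median log2 difference was 1.70 over the 8 members and 0.06 over all genes. Log2 differences here are of mean log2(FPKM + 1) with their standard error, which understates changes of low genes, and folds are ratios of mean FPKM.

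LUM, lumican, a keratan sulphate proteoglycan that spaces collagen fibrils, was 1772, 932 and 1099 FPKM in the GFP+mCherry+ libraries of day 25 and 219, 213 and 341 FPKM in the GFP-mCherry+ libraries. The groups did not overlap, and the difference was 2.27 ± 0.43 (adjusted p = 0.00247), or 4.92-fold. Of all genes tested, 23% were higher without overlap in this comparison. DCN, decorin, which carries a single chondroitin or dermatan sulphate chain and binds type I collagen and TGF-beta, was 2069, 884 and 1195 against 318, 313 and 584 FPKM. It was 3.41-fold higher, again without overlap (1.74 ± 0.43, adjusted p = 0.0107), and without library 1 it narrowly missed the threshold (1.40, adjusted p = 0.0519). FMOD, fibromodulin, which guides collagen cross-linking by lysyl oxidase, was 65.0, 60.0 and 83.7 against 16.8, 23.2 and 18.2 FPKM. FMOD thus differed 3.59-fold (1.79 ± 0.44, adjusted p = 0.0100) with little spread within each group.

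PRELP, a protein that links basement membranes to collagen, was 4.03, 12.0 and 14.5 FPKM in GFP+mCherry+ and 2.56, 3.39 and 1.03 FPKM in GFP-mCherry+ libraries of day 25 (1.67 ± 0.42, adjusted p = 0.0122). The call was lost without library 7 (1.35, adjusted p = 0.0602) or library 8 (1.35, adjusted p = 0.0634). ASPN, asporin, a TGF-beta binding class I protein with an aspartate-rich stretch, was 8.09, 3.20 and 5.09 against 0.867, 1.44 and 2.93 FPKM (1.23 ± 0.39, adjusted p = 0.0353). Its groups did not overlap either, but its call was lost without library 1, 2, 5 or 7 (0.95 to 1.24, adjusted p 0.0816 to 0.137), under quantile normalization (1.05, adjusted p = 0.0853) and with no filter on low genes (adjusted p = 0.0630).

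The other members did not pass at day 25. OGN, osteoglycin, was 23.9, 4.95 and 9.30 FPKM against 1.25, 1.54 and 5.55 FPKM, overlapping groups with a wide spread (1.78 ± 0.62, adjusted p = 0.0515). It passed without library 4 (2.26, adjusted p = 0.0304) or library 8 (2.27, adjusted p = 0.0353). It also passed with a pseudocount of 0.1 and with the filter at 5 FPKM, and missed in 8 of 12 alternatives. BGN, biglycan, the class I relative of decorin that can signal through Toll-like receptors, was 25.7, 24.6 and 36.3 against 24.2, 20.7 and 8.14 FPKM (0.78 ± 0.35, adjusted p = 0.128). PODN, podocan, was the only tested member with the lower mean in GFP+mCherry+ cells: 2.61, 2.20 and 2.16 against 2.92, 2.82 and 5.82 FPKM (-0.49 ± 0.21, adjusted p = 0.109).

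At day 40, 3 of 8 tested members were higher in GFP+mCherry+ than in GFP-mCherry+ cells (LUM, DCN and FMOD), against 16.2% of all genes. The members' median was 1.28 and that of all genes 0.08. LUM was 1228 and 1280 FPKM in the GFP+mCherry+ libraries and 128, 574 and 160 FPKM in the GFP-mCherry+ libraries (2.46 ± 0.48, adjusted p = 0.00214). DCN was 1583 and 1646 against 231, 826 and 252 FPKM (2.15 ± 0.48, adjusted p = 0.00460), and FMOD 107.5 and 82.0 against 13.9, 56.4 and 15.7 FPKM (1.97 ± 0.49, adjusted p = 0.00824). For each of them the groups did not overlap, library 14 included, where 26.4% of all genes were higher without overlap. Without library 13, which left 1 GFP+mCherry+ library that is assumed to vary like the other groups, DCN (2.12, adjusted p = 0.0528) and FMOD (2.16, adjusted p = 0.0510) narrowly missed the threshold and 1 member was called, and without library 10 FMOD missed it too (1.77, adjusted p = 0.0523).

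BGN at day 40 was 44.5 and 29.9 against 10.8, 25.2 and 17.1 FPKM (1.08 ± 0.39, adjusted p = 0.0548), and OGN was 15.8 and 22.9 against 2.35, 18.9 and 4.61 FPKM (1.47 ± 0.69, adjusted p = 0.128). Both passed without library 14 (BGN 1.36, adjusted p = 0.0215, and OGN 2.21, adjusted p = 0.0166), which made 5 members called. Without libraries 13 and 14 BGN also passed (1.64, adjusted p = 0.0474). ASPN was 9.05 and 4.66 against 3.51, 11.7 and 7.89 FPKM (adjusted p = 0.910), PRELP 5.30 and 1.91 against 0.622, 2.39 and 1.12 FPKM (adjusted p = 0.167), and PODN 3.30 and 3.38 against 5.35, 4.29 and 4.52 FPKM (adjusted p = 0.234). The change of these population differences between the days was itself tested, and no member passed at an adjusted p under 0.05. At an unadjusted p under 0.05, ASPN had a smaller difference at day 40 (-1.32 ± 0.58, unadjusted p = 0.0389, adjusted p = 0.725).

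**Figure D2:**
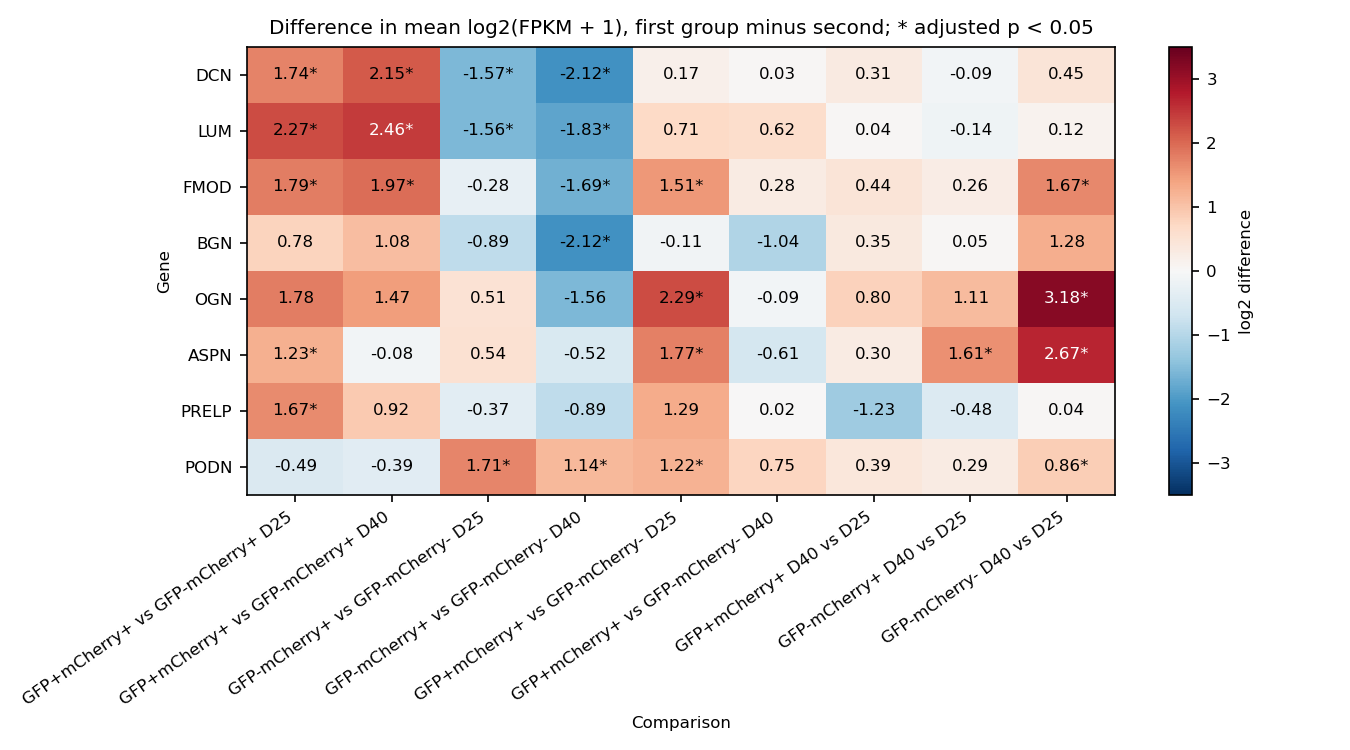
Difference in mean log2(FPKM + 1) of the 8 tested SLRP genes in 9 comparisons, first-named group minus second (red higher, blue lower), with an asterisk where the limma adjusted p was under 0.05. LUM and DCN are red in the first 2 columns and blue in the next 2, while PODN is blue and red there, and the last column holds the rise of OGN, ASPN, FMOD and PODN in GFP-mCherry- cells.

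GFP-mCherry+ cells had less LUM and DCN RNA than GFP-mCherry- cells at both days, and more PODN RNA. At day 25 these were the calls among the members: 2 of 8 lower, where 16.4% of all genes were lower, and 1 of 8 higher, where 12.1% were. GFP-mCherry- libraries held 852, 748 and 651 FPKM of LUM and 1072, 1040 and 1372 FPKM of DCN at day 25, all above the GFP-mCherry+ libraries. Of all genes, 29.3% were lower in GFP-mCherry+ cells without overlap there. LUM differed by -1.56 ± 0.43 (adjusted p = 0.0121) and DCN by -1.57 ± 0.43 (adjusted p = 0.0116, and 0.0507 without library 5, at -1.42). BGN was 27.3, 35.4 and 30.1 FPKM in GFP-mCherry- cells, above each GFP-mCherry+ library (-0.89 ± 0.35, adjusted p = 0.0696), and passed without library 2 (-1.17, adjusted p = 0.0303). FMOD (22.3, 26.1 and 22.2 FPKM), PRELP (2.65, 3.51 and 3.18 FPKM), OGN (0.912, 0.942 and 2.48 FPKM) and ASPN (0.672, 0.709 and 1.04 FPKM) overlapped with the GFP-mCherry+ libraries (adjusted p 0.333 to 0.688).

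PODN is a class V SLRP first described in kidney podocytes and also found in vessel walls. At day 25 it was 0.426, 0.344 and 0.510 FPKM in GFP-mCherry- cells and 9.03-fold higher in GFP-mCherry+ cells (1.71 ± 0.21, adjusted p = 2.42e-05). At day 40 it was 1.38, 1.80 and 1.61 FPKM in GFP-mCherry- cells and 2.96-fold higher in GFP-mCherry+ cells (1.14 ± 0.21, adjusted p = 0.000713). In GFP+mCherry+ cells it was also 5.45-fold above GFP-mCherry- cells at day 25 (1.22 ± 0.21, adjusted p = 0.00152). At day 40 the 2.1-fold difference narrowly missed the threshold (0.75 ± 0.24, adjusted p = 0.0504), and no alternative brought it past. The mean level of PODN was thus highest in GFP-mCherry+, intermediate in GFP+mCherry+ and lowest in GFP-mCherry- cells at each day. The first pair of neighbours did not differ past the threshold at either day, nor did the second pair at day 40.

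At day 40, 4 of 8 members were lower in GFP-mCherry+ than in GFP-mCherry- cells (LUM, DCN, BGN and FMOD; 18.5% of all genes) and PODN was higher (1 of 8; 13.3% of all genes). The members' median was -1.63, against -0.09 over all genes. BGN had the clearest difference of the 4: 73.9, 102 and 59.0 FPKM in GFP-mCherry- cells, where GFP-mCherry+ libraries reached at most 25.2 FPKM (-2.12 ± 0.35, adjusted p = 0.000312), a 4.42-fold difference. LUM was 745, 1193 and 605 FPKM in GFP-mCherry- cells of day 40 (-1.83 ± 0.43, adjusted p = 0.00410). DCN was 1539, 2241 and 1143 FPKM (-2.12 ± 0.43, adjusted p = 0.00145). Neither overlapped with the GFP-mCherry+ libraries, including library 14, where 22.6% of all genes were lower in GFP-mCherry+ cells without overlap. FMOD was 92.8, 128 and 38.3 FPKM and overlapped through library 14 (-1.69 ± 0.44, adjusted p = 0.00779). Its call was lost without library 15 (-1.32, adjusted p = 0.0502) and when only the 2 groups were fitted (adjusted p = 0.0581). OGN was 15.1, 35.4 and 15.6 FPKM (-1.56 ± 0.62, adjusted p = 0.0634) and passed without library 14 (-2.30, adjusted p = 0.00670). PRELP was 3.72, 4.09 and 2.1 FPKM (-0.89 ± 0.42, adjusted p = 0.120) and passed only without both libraries 13 and 14 (-1.18, adjusted p = 0.0496).

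GFP+mCherry+ and GFP-mCherry- cells, which both held high LUM and DCN, differed in some of the less abundant members at day 25. OGN, FMOD, ASPN and PODN were higher in GFP+mCherry+ cells, 4 of 8 tested members against 5.77% of all genes. ASPN differed 6.77-fold (1.77 ± 0.39, adjusted p = 0.00845) and OGN 8.80-fold (2.29 ± 0.62, adjusted p = 0.0256), and neither overlapped. Of all genes, 15.7% were higher without overlap in this comparison. FMOD differed 2.95-fold (1.51 ± 0.44, adjusted p = 0.0360). The OGN call was lost without library 1, 3, 6 or 7 (1.74 to 2.37, adjusted p 0.0627 to 0.105), and the FMOD call without any 1 of the 6 libraries (1.37 to 1.61, adjusted p 0.0673 to 0.121). With no filter on low genes both were lost as well (OGN adjusted p = 0.0537, FMOD adjusted p = 0.0676), and 2 members were called. PRELP (1.29 ± 0.42, adjusted p = 0.0601) passed without library 1 (1.79, adjusted p = 0.00941). LUM was higher in each GFP+mCherry+ library than in any GFP-mCherry- library of day 25, without passing (adjusted p = 0.324), and DCN and BGN overlapped (adjusted p = 0.846 and 0.880).

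At day 40 none of the 8 tested members passed between GFP+mCherry+ and GFP-mCherry- cells, where 11.8% of all genes did. At an unadjusted p under 0.05 there were 2, BGN (37.2 ± 10.4 FPKM, n = 2, against 78.2 ± 21.8 FPKM, n = 3, a difference of -1.04 ± 0.39, adjusted p = 0.0947) and PODN, given above. DCN averaged 1615 ± 44.8 against 1641 ± 556 FPKM, and LUM 1254 ± 37.0 against 848 ± 307 FPKM, the latter again without overlap (adjusted p = 0.420). Of all genes, 21.7% were higher without overlap here. OGN (19.3 ± 5.00 against 22.0 ± 11.6 FPKM) and FMOD (94.7 ± 18.0 against 86.4 ± 45.2 FPKM), which had differed at day 25, overlapped. The day-dependence of this difference was tested directly. It was -2.38 ± 0.58 for ASPN (adjusted p = 0.0620) and -2.39 ± 0.93 for OGN (adjusted p = 0.437), so that no member passed, and ASPN passed without library 12 (-2.62, adjusted p = 0.0446) or with only these 4 groups fitted (adjusted p = 0.0422).

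In GFP-mCherry- cells some of the SLRPs less abundant than DCN and LUM differed between the days. At day 40, 4 of 8 tested members, OGN, ASPN, FMOD and PODN, were higher than at day 25, where 1.55% of all genes were called higher. The members' median was 1.07, against -0.09 over all genes. OGN rose from 1.45 ± 0.90 to 22.0 ± 11.6 FPKM, 15.2-fold (3.18 ± 0.62, adjusted p = 0.0109), and ASPN from 0.806 ± 0.200 to 10.8 ± 3.16 FPKM, 13.4-fold (2.67 ± 0.39, adjusted p = 0.00207). Neither had overlapping days, where 9.44% of all genes were higher at day 40 without overlap. The promoter windows of these 2 genes were AT-rich. Those of FMOD and PODN, which also rose, held 52.3% and 71.7% G and C, and the part of promoters was not tested. FMOD rose from 23.6 ± 2.20 to 86.4 ± 45.2 FPKM (1.67 ± 0.44, adjusted p = 0.0446), and PODN from 0.427 ± 0.083 to 1.59 ± 0.21 FPKM (0.86 ± 0.21, adjusted p = 0.0335).

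These calls differed in how they bore leaving out a library. ASPN passed whichever library was left out. OGN missed narrowly without library 6 (3.05, adjusted p = 0.0550) or library 15 (2.80, adjusted p = 0.0568). FMOD was lost without library 3, 6, 9, 12 or 15 (1.31 to 1.74, adjusted p 0.112 to 0.195), with no filter on low genes (adjusted p = 0.0811) and with a pseudocount of 0.1 (adjusted p = 0.0581). PODN was lost without any 1 of the 6 libraries (0.81 to 0.92, adjusted p 0.0632 to 0.124), with the filter at 5 FPKM (adjusted p = 0.0617) and under quantile normalization (adjusted p = 0.0547). BGN went from 30.9 ± 4.13 to 78.2 ± 21.8 FPKM without overlap (1.28 ± 0.35, adjusted p = 0.0545) and passed under median-of-ratios scaling (1.39, adjusted p = 0.0443), quantile normalization (1.39, adjusted p = 0.0364) and when only the 2 groups were fitted (adjusted p = 0.0206). LUM, DCN and PRELP had overlapping levels at the 2 days (adjusted p 0.639 to 0.978). The summed fibroblast markers were 4310 to 4567 FPKM at day 25 and 6198 to 10800 FPKM at day 40. Of these 12 markers, 1 was called higher. Of 6 tested endothelial markers, 4 were lower at day 40, where 2.32% of all genes were called lower. The summed endothelial markers did not fall, at 63.6 to 108 FPKM at day 25 and 78.6 to 152.5 FPKM at day 40. The part of either list in the SLRP changes was not tested.

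In GFP-mCherry+ cells ASPN alone passed between the days, 1 of 8 members against 0.633% of all genes called higher. It went from 0.867, 1.44 and 2.93 FPKM at day 25 to 3.51, 11.7 and 7.89 FPKM at day 40 (1.61 ± 0.39, adjusted p = 0.0280), 4.42-fold. Library 14 is the highest of these, and without it the difference was 1.28 (adjusted p = 0.162), and 1.28 (adjusted p = 0.144) without libraries 13 and 14. The call was also lost without library 2, 5 or 17 (1.37 to 1.56, adjusted p 0.0975 to 0.145), with no filter (adjusted p = 0.0612) and with only the 2 groups fitted (adjusted p = 0.113). In the same cells 3 of 8 blood markers (PTPRC, CD68 and CSF1R) were higher at day 40, with summed levels of 2.93 to 25.9 FPKM at day 25 and 38.2 to 67.8 FPKM at day 40, and their part in the ASPN value was not tested. In GFP+mCherry+ cells none of the 8 passed, where 4.01% of all genes were called either way, and 1 of the 8, PRELP, had an unadjusted p under 0.05. PRELP was 4.03, 12.0 and 14.5 FPKM at day 25 and 5.30 and 1.91 FPKM at day 40 (-1.23 ± 0.47, adjusted p = 0.154), and it passed without library 1, its lowest day-25 library (-1.73, adjusted p = 0.0259). The 3 tests of whether a population difference changed with the day gave no call among the members, where 0.0135%, 0.00674% and 1.24% of all genes were called, and the last of them was that of GFP+mCherry+ against GFP-mCherry- cells. For GFP-mCherry+ against GFP-mCherry- cells, BGN, OGN and FMOD had an unadjusted p under 0.05 (-1.23 ± 0.50, -2.08 ± 0.87 and -1.41 ± 0.62, adjusted p 0.687 to 0.721).

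DCN and LUM, neighbours on chromosome 12, went together across libraries but not in a fixed ratio. DCN was 0.948 to 1.29 times LUM in the 5 GFP+mCherry+ libraries and 1.44 to 1.80 times LUM in the 6 GFP-mCherry+ libraries, without overlap. In GFP-mCherry- libraries the ratio was 1.26, 1.39 and 2.11 at day 25 and 2.07, 1.88 and 1.89 at day 40. These ratios were looked at after the levels were known and were not tested. FPKM is scaled by length, which allows a ratio between genes, but it also depends on the transcript models used.

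**Figure D3:**
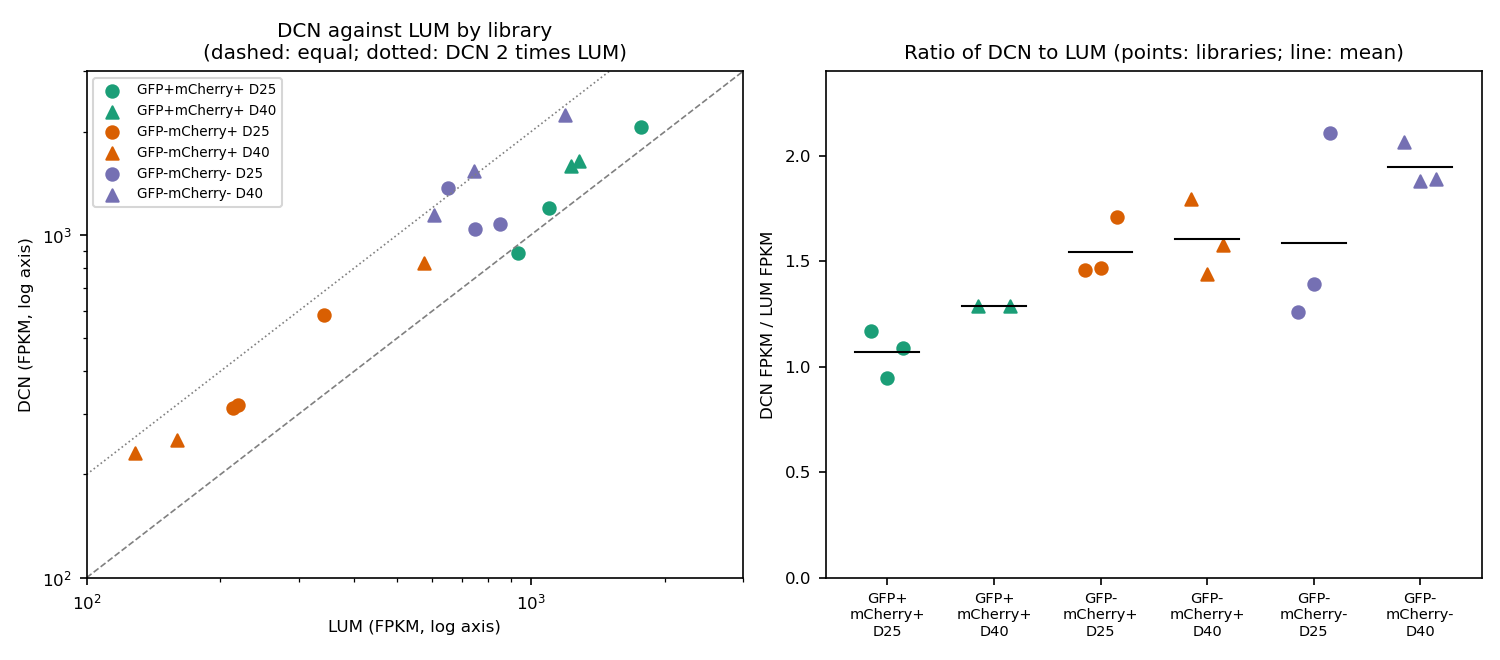
Left, DCN against LUM in FPKM on log axes for the 17 libraries, with lines of equal level (dashed) and of DCN at 2 times LUM (dotted). Right, the ratio of DCN to LUM by group with its mean, where the GFP+mCherry+ libraries lie between 0.948 and 1.29 and the GFP-mCherry+ libraries between 1.44 and 1.80.

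Over the 17 libraries, Pearson's r of log2(FPKM + 1) was 0.96 between LUM and DCN, 0.89 between OGN and ASPN, and 0.81 between LUM and FMOD. The libraries fall into 6 groups and share their processing, and the values are given without a test. After each group's mean was taken away, r was 0.94 for LUM and DCN, 0.96 for DCN and OGN, 0.80 for OGN and ASPN and 0.78 for LUM and FMOD. The GFP-mCherry+ group of day 40, which holds library 14, had the widest log2 spread for LUM, DCN and OGN (SD 1.16, 1.03 and 1.33). The other groups reached at most 0.50, 0.62 and 1.04. Library 14 was not left out of these r values, and its part in them was not tested. PODN and BGN went opposite ways (r -0.54, and -0.75 within groups). PRELP stood apart from LUM and DCN within groups (r 0.07 and -0.04).

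Members with a group mean of at least 5 FPKM were compared with 11604 other genes that reached the same mean. The genes outside the family most like each of these members over the 17 libraries were listed. For LUM they were EPAS1, FAM129A and MEST (r 0.97 each), and for DCN they were MEST, SPARC and COL3A1 (r 0.97 each), of which SPARC and COL3A1 encode matrix proteins of collagen-rich tissue. BGN was most like ISLR, ELN (elastin) and PENK (r 0.91 to 0.95). FMOD was most like SVEP1, LOX and KDELR3 (r 0.94 to 0.95), LOX being the lysyl oxidase that cross-links collagen. OGN was most like CMKLR1, CFB and NNMT (r 0.92 to 0.93) and ASPN most like MFAP4, SYTL4 and CMKLR1 (r 0.85 to 0.91). PRELP was most like TF, CCDC3 and FZD7 (r 0.90 to 0.93).

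Of 8 other genes of the family, 3 passed the filter, and 1 of them, TSKU, was called between GFP+mCherry+ and GFP-mCherry+ cells (medians of the 3 genes 0.20 at day 25 and 0.69 at day 40). TSKU, tsukushi, was 25.6 ± 2.57 FPKM in GFP+mCherry+ and 16.1 ± 3.83 FPKM in GFP-mCherry+ cells at day 25 (0.66 ± 0.21, adjusted p = 0.0368). At day 40 it was 17.0 ± 2.85 against 9.78 ± 1.41 FPKM (0.74 ± 0.23, adjusted p = 0.0301), and in GFP-mCherry- cells it was 24.8 ± 6.18 FPKM.

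The enzymes that build the sugar chains were compared in the same way. Counts of this and the following lists stand beside the shares over all genes given above: 12% higher at day 25 and 16.2% at day 40 in GFP+mCherry+ against GFP-mCherry+ cells, and 16.4% and 18.5% lower in GFP-mCherry+ against GFP-mCherry- cells. In the other direction, 8.37% and 9.3% were lower in the first comparison, and 12.1% and 13.3% higher in the second. Of 15 tested enzymes of chondroitin and dermatan sulphate, 4 were higher and none lower in GFP+mCherry+ than in GFP-mCherry+ cells at day 25 (median 0.44, all genes 0.06), among them CHPF2, CSGALNACT2 and CHST15. CHST15, which adds a second sulphate to chondroitin, was 5.55 ± 1.84 against 1.92 ± 1.02 FPKM (1.20 ± 0.37, adjusted p = 0.0319). At day 40, 3 of 15 were higher, near the share of all genes. Against GFP-mCherry- cells, GFP-mCherry+ cells had 5 of 15 lower at day 25 and 10 of 15 lower at day 40 (median -0.76, all genes -0.09). DSE, the epimerase that turns chondroitin into dermatan sulphate, was 11.4 ± 2.42 FPKM in GFP-mCherry+ and 21.5 ± 1.53 FPKM in GFP-mCherry- cells at day 40 (-0.88 ± 0.21, adjusted p = 0.00397).

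Of 6 tested keratan sulphate enzymes, 4 were higher in GFP+mCherry+ than in GFP-mCherry+ cells at day 25, led by B3GNT2 (18.0 ± 2.24 against 8.88 ± 1.74 FPKM, 0.95 ± 0.19, adjusted p = 0.00376), and 2 of 6 at day 40 (medians 0.66 and 0.08, all genes 0.06 and 0.08). Both tyrosine sulphotransferases, which modify the amino-terminal ends of FMOD and LUM, were higher at day 25: TPST1 at 22.3 ± 1.34 against 11.6 ± 0.97 FPKM (0.88 ± 0.19, adjusted p = 0.00587) and TPST2 at 14.5 ± 2.97 against 7.84 ± 0.48 FPKM (0.79 ± 0.21, adjusted p = 0.0149). At day 40 TPST2 passed and TPST1 did not. Of 6 tested enzymes of the linkage region, which starts chondroitin and dermatan sulphate chains, XYLT1 and B3GAT3 were lower in GFP-mCherry+ than in GFP-mCherry- cells at day 40 (median -0.45, all genes -0.09). XYLT1, which adds the first xylose, was 2.25 ± 0.86 against 4.65 ± 0.76 FPKM (-0.83 ± 0.21, adjusted p = 0.00727). Of 15 tested large and cell surface proteoglycans outside the family, 9 were lower and 1 higher in that comparison (median -0.63), among the lower ones AGRN, agrin, at 25.0 ± 4.42 against 153 ± 53.3 FPKM (-2.51 ± 0.26, adjusted p = 1.03e-05).

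Fibrillar collagens and their partners, the fibrils that SLRPs coat, were higher in GFP+mCherry+ than in GFP-mCherry+ cells for 12 of 17 tested genes and lower for 2 at each day (medians 1.33 and 1.31, all genes 0.06 and 0.08). The count of lower genes was near the share of all genes. COL1A2 was 1846 ± 374 against 504 ± 42.4 FPKM at day 25 (1.85 ± 0.41, adjusted p = 0.00572), and LOX 156 ± 2.79 against 33.6 ± 25.1 FPKM at day 40 (2.41 ± 0.46, adjusted p = 0.00182). COL2A1 and COL11A2, collagens known from cartilage, were the lower ones at day 25, COL11A2 at 5.34 ± 2.45 against 54.2 ± 5.60 FPKM (-3.20 ± 0.49, adjusted p = 0.000676). GFP-mCherry+ cells had 6 of 17 lower and 1 higher than GFP-mCherry- cells at day 25, and 13 lower and 2 higher at day 40. COL1A1 at day 40 was 299 ± 90.2 against 2130 ± 1150 FPKM (-2.73 ± 0.30, adjusted p = 1.25e-05). In GFP-mCherry- cells between the days, ELN (4.41 ± 0.43 to 20.8 ± 2.67 FPKM, adjusted p = 0.00386) and FBN1 rose and COL2A1 fell, 2 higher and 1 lower of 17.

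Of 13 tested TGF-beta ligands, receptors and latency proteins, which decorin, biglycan and asporin can bind, 6 were higher and 1 lower in GFP+mCherry+ than in GFP-mCherry+ cells at day 25 (median 0.84, all genes 0.06). The lower one was LTBP1 (42.3 ± 9.69 against 114 ± 20.4 FPKM, -1.42 ± 0.21, adjusted p = 0.000568), and TGFBR3, betaglycan, was among the higher ones (14.1 ± 2.87 against 5.57 ± 0.77 FPKM, adjusted p = 0.00834). TGFB3 was lower in GFP-mCherry+ than in GFP-mCherry- cells at day 40 (8.89 ± 1.37 against 49.6 ± 10.7 FPKM, -2.34 ± 0.25, adjusted p = 1.09e-05). Among 8 receptors reported to bind SLRPs, EGFR was 8.60 ± 0.72 against 2.32 ± 0.14 FPKM between GFP+mCherry+ and GFP-mCherry+ cells at day 25 (1.53 ± 0.28, adjusted p = 0.00216), with 2 of 8 higher there, of all genes 12%, and 4 of 8 at day 40, of all genes 16.2% (medians 0.42 and 0.82, all genes 0.06 and 0.08). TLR2, a biglycan receptor, was 8.10 ± 3.92 FPKM in GFP+mCherry+ cells at day 40 and 0.659 ± 0.188 FPKM at day 25 (2.39 ± 0.27, adjusted p = 7.46e-05). All 8 blood cell markers were also higher there at day 40, at a summed 130 to 295 FPKM against 23.6 to 32.1 FPKM at day 25, and their part in the TLR2 value was not tested. Of 9 tested proteases that act on SLRPs or on procollagen, 5 were higher at day 25 and 6 at day 40 in GFP+mCherry+ than in GFP-mCherry+ cells (medians 0.93 and 0.94). MMP14 was 100 ± 14.1 against 41.3 ± 13.8 FPKM at day 25 (1.30 ± 0.25, adjusted p = 0.00287), and BMP1, which cuts the BGN propeptide, 48.6 ± 9.24 against 17.4 ± 1.41 FPKM at day 40 (1.42 ± 0.27, adjusted p = 0.00159).

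Markers of other cell types also differed between the populations that differed in SLRPs, but not all in the direction of LUM and DCN. Of 12 fibroblast markers, 6 were higher and 1 lower in GFP+mCherry+ than in GFP-mCherry+ cells at day 25, and 5 were higher at day 40 (medians 0.95 and 0.50, all genes 0.06 and 0.08). Their summed FPKM was 5178 to 10790 in GFP+mCherry+ libraries, 4310 to 10800 in GFP-mCherry- libraries and 1794 to 3462 in GFP-mCherry+ libraries, without overlap of the last with the others. SPARC made up most of it (6054 ± 2870 against 1506 ± 544 FPKM at day 25, 1.97 ± 0.39, adjusted p = 0.00320). All 8 epicardial and all 8 epithelial markers were lower in GFP-mCherry+ than in GFP-mCherry- cells at both days. In GFP+mCherry+ against GFP-mCherry+ cells, 3 of 8 epicardial markers were higher and 0 lower at each day. Of the 8 epithelial markers, 6 were higher there at day 25 and 1 at day 40, with 0 lower. Epicardial sums were 259 to 409 FPKM in GFP-mCherry+ and 1050 to 1244 FPKM in GFP-mCherry- cells at day 25. Of 7 tested cartilage markers, 2 were higher and 1, COL2A1, lower in GFP+mCherry+ than in GFP-mCherry+ cells at day 25 (median 0.54), and 4 were lower and 1 higher in GFP-mCherry+ than in GFP-mCherry- cells at day 40 (median -0.84). Their summed FPKM, of which COL2A1 is the largest part, was 92.1 to 196 in GFP-mCherry+ libraries and 51.0 to 114 in GFP+mCherry+ libraries. Smooth muscle markers went the other way from LUM and DCN between GFP-mCherry+ and GFP-mCherry- cells. Of 8, 5 were higher and 0 lower in GFP-mCherry+ than in GFP-mCherry- cells at each day (medians 1.09 and 1.15). Of all genes, 12.1% and 13.3% were higher there. Of 4 tested tendon markers, 2 were higher and 1 lower in that comparison at day 40 (median 0.33). Between GFP+mCherry+ and GFP-mCherry+ cells, 2 of the 8 smooth muscle markers were higher and 1 lower at day 25 (median 0.42). At day 40, 2 of them were higher and 2 lower there (median -0.18). The part of any of these cell types in the SLRP differences was not tested.

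**Figure D4:**
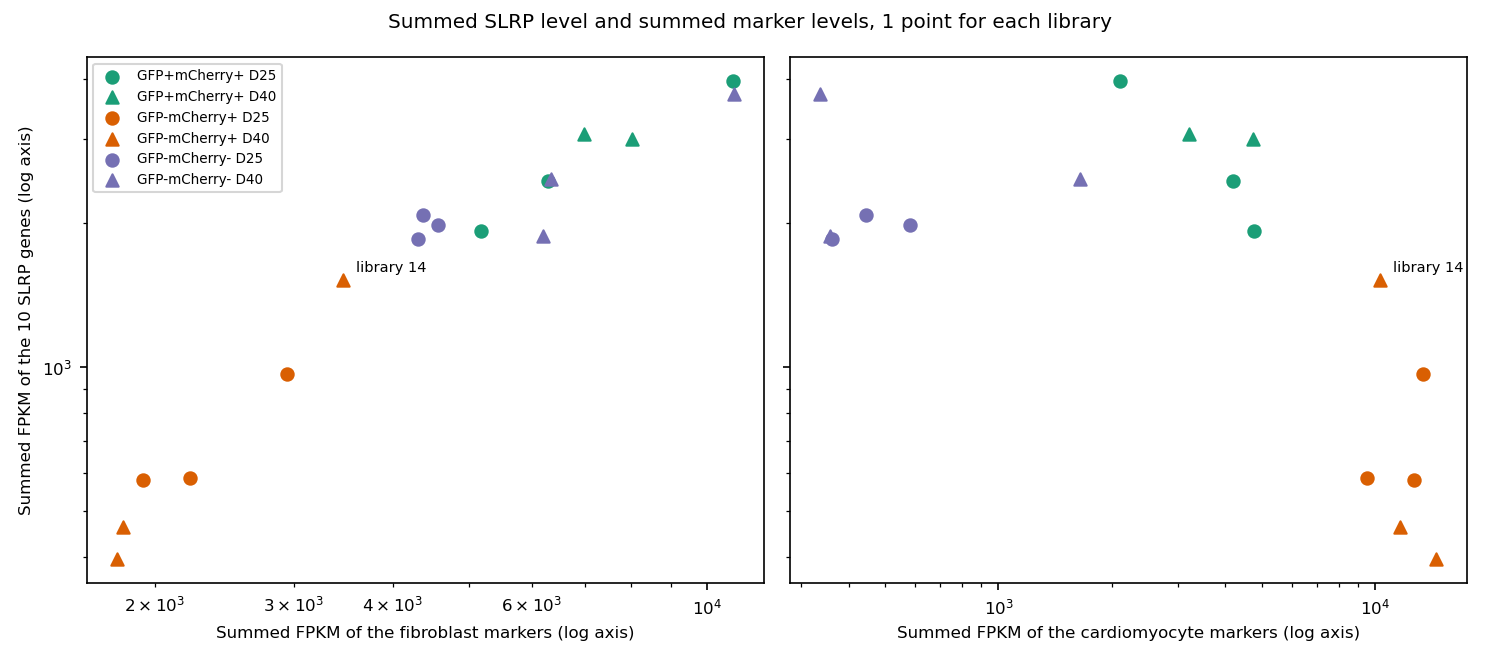
Summed FPKM of the 10 SLRP genes against the summed FPKM of 12 fibroblast markers (left) and 10 cardiomyocyte markers (right), log axes, 1 point for each library. GFP-mCherry+ libraries lie at the low fibroblast (1794 to 3462 FPKM) and high cardiomyocyte end (9500 to 14540 FPKM), and library 14 is the highest of them in SLRPs.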

How the data were processed

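RNA of sorted cells had been made into TruSeq libraries, per the labels' protocols. The submitters' processing notes name bcl2fastq 2.19, cutadapt, STAR 2.5.2b, Cufflinks 2.1.1 and build hg19. The deposited values are taken as the authors' FPKM, the unit Cufflinks gives. The annotation and read depth are not given in the sources used here, so no counting interval or detection limit could be set. Of 20368 rows with 71 repeated identifiers, 1 row was kept for each of 20218 gene names, that of the highest mean. Starts in the table count from 0 (13537 of 19426 spans equal the annotated length without adding 1), and 1 was added.

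Genes of at least 1 FPKM in at least 2 of 17 libraries (14845) were tested on log2(FPKM + 1) with limma 3.58.1 (R 4.3.3), 1 mean for each of 6 groups, 11 residual degrees of freedom and a mean-variance trend. Two-sided p-values were adjusted by Benjamini-Hochberg over all genes of each of 12 comparisons, with a threshold of 0.05. The steps were tested on simulated data. Differences of under 2 standard errors are given as levels. Members and gene lists (the tests and lists included) were chosen with earlier results of these data known. Named genes are the members, label checks, overlapping and neighbouring genes, and up to 3 called genes of a list with the smallest adjusted p. The 3 most alike genes are named for each member with a group mean of at least 5 FPKM. HCN4 and TBX18 are named beyond these rules. Replicate numbers are those of the library titles and pair no samples. Promoters came from RefSeq (GRCh38.p14). LUM, DCN, OMD and KERA promoters were not used here. Alternatives are in the closing section.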

Additional observations from a re-analysis of the deposited data

How the results depend on the processing

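Each comparison was repeated with 0.1 FPKM added in place of 1, with all genes, with genes of at least 5 FPKM, after quantile normalization or median-of-ratios scaling, on the compared groups alone, and without each library. Chosen after seeing the data, libraries 13 and 14 were also left out together. No member difference of at least 2 standard errors changed sign under any of them. Of the 51 smaller differences, 22 changed sign under at least 1 alternative, 0 of them past the threshold there.

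Leaving out 1 library moved the number of members called from 5 to between 3 and 6 for GFP+mCherry+ against GFP-mCherry+ cells at day 25, and from 3 to between 1 and 5 at day 40. It moved the number from 4 to between 2 and 3 for GFP+mCherry+ against GFP-mCherry- cells at day 25. For GFP-mCherry+ against GFP-mCherry- cells it gave 2 to 4 at day 25 and 4 to 6 at day 40. Between the days it gave 0 to 1 in GFP+mCherry+ cells, 0 to 1 in GFP-mCherry+ cells and 1 to 3 in GFP-mCherry- cells, and 0 to 1 for the day change of GFP+mCherry+ against GFP-mCherry- cells. With no filter on low genes, GFP+mCherry+ against GFP-mCherry- cells had 2 members called at day 25 and 1 at day 40 (KERA, lower, which the filter had kept out), and GFP-mCherry+ cells had 0 between the days. Fitting only the compared groups gave 0 for GFP-mCherry+ cells between the days and 1 for the day change of GFP+mCherry+ against GFP-mCherry- cells. Without libraries 13 and 14 GFP-mCherry+ cells had 0 between the days. The cause of these moves was not tested, beyond the smaller number of libraries where some were left out.

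Scaling moved the split of calls over all genes in some comparisons. Under quantile normalization GFP+mCherry+ against GFP-mCherry+ cells at day 40 had 1827 higher and 1834 lower, against 2404 and 1380, and the median of all genes went from 0.08 to -0.06. GFP-mCherry+ cells between the days had 114 higher and 324 lower, against 94 and 581. Under median-of-ratios scaling GFP-mCherry- cells between the days had 262 higher and 229 lower, against 230 and 344. No paired analysis was possible because the labels give the groups no shared replicate number and do not say which libraries were sorted together. FPKM of OMD and KERA are too low for a comparison, and groups of 2 and 3 libraries limit the rest.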
